A study of Mus musculus with 6 samples.

Results

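The 3 peak lists compared here came from chromatin immunoprecipitation sequencing (ChIP-seq) of C/EBPα, IRF8 and JUNB in mouse macrophages exposed to IL-4 for 1 h. Peaks of the 3 lists were merged wherever they shared at least 1 bp, which gave 51891 regions, out of 60856 regions when the lists of untreated cells are merged as well. Each region was then assigned to 1 of 7 classes by the factors with a peak in it. The classes were compared by genomic annotation, distance to the nearest transcription start site (TSS), nearest gene, score rank and sequence.

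The cells were wild-type bone marrow-derived macrophages (BMDMs), primary macrophages grown from the marrow of mice aged 8 to 12 weeks, on a C57BL/6 background. Marrow cells were differentiated for 6 days with L929 supernatant, a source of macrophage colony-stimulating factor (M-CSF), then given IL-4 at 20 ng/ml. All 3 samples shared that treatment and a double fixation with DSG and formaldehyde, and they differed in the antibody. Each factor had 1 sample, so no value below has a replicate, and sequencing depth is unknown. Libraries came from either of 2 kits, and the kit of each sample is not given in the sources used here. Differences between factors in antibody, depth or kit cannot be told apart from differences in binding.

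C/EBPα is a basic leucine zipper protein that directs myeloid differentiation and binds DNA as a dimer. IRF8 is a member of the interferon regulatory factor family that is needed for monocyte and macrophage development, and it binds largely with a partner, above all with PU.1 at composite ETS-IRF elements, or at interferon response elements. JUNB is a JUN family protein that binds as part of AP-1, a dimer with a FOS, ATF or BATF protein. In macrophages such factors occupy enhancers of the lineage, to which signal-dependent factors such as the IL-4-activated STAT6 are added.

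Short sequence words that stand for these binding modes were searched on both strands in the 200 bp at the centre of each region. They were TGACTCA for AP-1, TTGCNNAA for C/EBP, GAGGAAGT for PU.1, GGAA followed after any 2 bases by GAAA for the ETS-IRF composite, and GAAA followed after any 2 bases by GAAA for the interferon response element, where N is any base. The sequences below are from the mm10 assembly (GRCm38), on the plus strand, with the words in capitals, and each is named by its nearest gene. The first set comes from regions of all 3 factors, and is shown because each window holds an AP-1 word and a C/EBP word, which 7.21% of the class did. In that class 6 windows were read, the 3 best-ranked and the 3 best-ranked with no named repeat, and none held an AP-1 word. The Cd36 region was annotated to intron 1 of the gene, and the regions near Abca1 and Clec4d were intergenic, 21865 bp and 9162 bp upstream of the TSS.
Cd36, chr5:17880026-17880225: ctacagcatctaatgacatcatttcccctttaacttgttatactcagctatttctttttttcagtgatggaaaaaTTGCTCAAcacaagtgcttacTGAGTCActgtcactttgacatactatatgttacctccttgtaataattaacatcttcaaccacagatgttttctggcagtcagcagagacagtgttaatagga
Abca1, chr4:53181661-53181860: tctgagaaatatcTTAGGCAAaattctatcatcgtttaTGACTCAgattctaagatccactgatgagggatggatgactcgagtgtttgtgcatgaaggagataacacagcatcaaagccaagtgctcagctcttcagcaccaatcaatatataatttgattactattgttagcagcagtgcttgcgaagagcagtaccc
Clec4d, chr6:123252860-123253059: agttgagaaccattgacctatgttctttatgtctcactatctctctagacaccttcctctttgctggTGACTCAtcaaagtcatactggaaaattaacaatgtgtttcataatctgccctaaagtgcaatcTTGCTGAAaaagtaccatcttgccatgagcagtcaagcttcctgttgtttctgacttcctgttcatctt

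The second set comes from the classes of 2 factors. The C/EBPα + IRF8 window near Gab2, in an intron, carries an ETS-IRF word and a C/EBP word, and the windows with JUNB carry the AP-1 word, next to C/EBPα near Slc44a1 and next to IRF8 near Ppp1r21. The windows near Slc44a1, in an intron, and near Ppp1r21, in intergenic sequence, were chosen after their values were seen and because they hold the word. It was in 2 of the 5 C/EBPα + JUNB windows and 1 of the 6 IRF8 + JUNB windows read, which were picked by the same 2 rankings as above. Of the 4 C/EBPα + IRF8 windows picked in that way, only that near Gab2 held a C/EBP word.
Gab2, chr7:97026968-97027167: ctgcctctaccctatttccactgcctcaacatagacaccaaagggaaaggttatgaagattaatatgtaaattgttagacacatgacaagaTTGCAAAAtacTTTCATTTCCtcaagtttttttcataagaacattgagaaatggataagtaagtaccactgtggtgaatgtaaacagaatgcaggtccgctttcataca
Slc44a1, chr4:53474216-53474415: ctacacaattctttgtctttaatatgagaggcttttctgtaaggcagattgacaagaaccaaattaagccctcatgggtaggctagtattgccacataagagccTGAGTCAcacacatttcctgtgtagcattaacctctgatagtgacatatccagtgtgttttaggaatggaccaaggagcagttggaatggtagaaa
Ppp1r21, chr17:88509224-88509423: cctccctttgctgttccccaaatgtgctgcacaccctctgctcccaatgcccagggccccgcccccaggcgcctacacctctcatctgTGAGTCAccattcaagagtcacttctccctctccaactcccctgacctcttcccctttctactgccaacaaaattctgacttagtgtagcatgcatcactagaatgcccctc

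The third set comes from the classes of 1 factor. The C/EBPα window near Musk lies in an intron and holds a pair of C/EBP words, the IRF8 windows at the Socs1 and Usp18 promoters hold interferon response words, and the JUNB window near 4933433H22Rik, which is intergenic and was chosen after its values were seen, holds a pair of AP-1 words. It was the only one of the 6 best-ranked JUNB-only windows read that held the word. Its AP-1 words lie in variants of a short repeated unit, which the definition of tandem repeat regions below does not cover. What part this repeat had in the JUNB peak was not tested. None of the 3 best-ranked IRF8-only windows held an interferon response word.
Musk, chr4:58330975-58331174: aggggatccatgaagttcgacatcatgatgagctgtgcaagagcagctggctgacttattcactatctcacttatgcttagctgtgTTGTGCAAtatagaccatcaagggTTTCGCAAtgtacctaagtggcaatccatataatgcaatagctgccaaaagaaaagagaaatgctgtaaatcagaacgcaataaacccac
Socs1, chr16:10785555-10785754: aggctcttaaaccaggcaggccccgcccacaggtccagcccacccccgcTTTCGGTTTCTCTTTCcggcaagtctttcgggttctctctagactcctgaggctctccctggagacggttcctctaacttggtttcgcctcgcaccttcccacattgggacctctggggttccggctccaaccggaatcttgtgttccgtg
Usp18, chr6:121245654-121245853: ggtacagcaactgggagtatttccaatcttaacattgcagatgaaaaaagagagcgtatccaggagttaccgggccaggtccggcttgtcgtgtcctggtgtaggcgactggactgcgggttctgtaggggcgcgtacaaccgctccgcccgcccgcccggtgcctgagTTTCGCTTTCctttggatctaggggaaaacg
4933433H22Rik, chr17:84107604-84107803: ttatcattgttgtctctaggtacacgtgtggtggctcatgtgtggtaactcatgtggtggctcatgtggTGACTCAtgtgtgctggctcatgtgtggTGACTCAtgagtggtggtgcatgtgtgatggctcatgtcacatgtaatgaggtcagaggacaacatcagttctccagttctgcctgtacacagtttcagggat

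The last sequence has none of these words and is shown because tandem repeat tracts held the highest JUNB scores. It comes from an intronic IRF8 + JUNB region near Myo7a and is built on the unit GGAAT and its variants.
Myo7a, chr7:98059967-98060166: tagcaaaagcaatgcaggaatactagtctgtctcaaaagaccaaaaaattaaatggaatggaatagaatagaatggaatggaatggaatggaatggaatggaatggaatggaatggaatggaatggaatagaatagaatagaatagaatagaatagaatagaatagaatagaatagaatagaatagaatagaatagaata

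The lists differed widely in length. C/EBPα had 24612 peaks, IRF8 had 42076 and JUNB had 2325, with median peak scores of 11.2, 9.61 and 6.21 in that order. The deposited score has no stated unit, so it was used as a rank within a list, where 0% is the highest score. Peaks were also of different median width, at 269 bp (C/EBPα), 291 bp (IRF8) and 196 bp (JUNB). The list lengths set the largest possible size of each class.

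Most regions held 1 factor. There were 26871 IRF8-only regions (51.8% of all regions), 9565 C/EBPα-only regions (18.4%) and 266 JUNB-only regions (0.513%). C/EBPα and IRF8 met without JUNB in 13140 regions (25.3%). Regions of all 3 factors numbered 1582 (3.05%), while C/EBPα + JUNB had 126 and IRF8 + JUNB had 341.

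**Figure D1:**
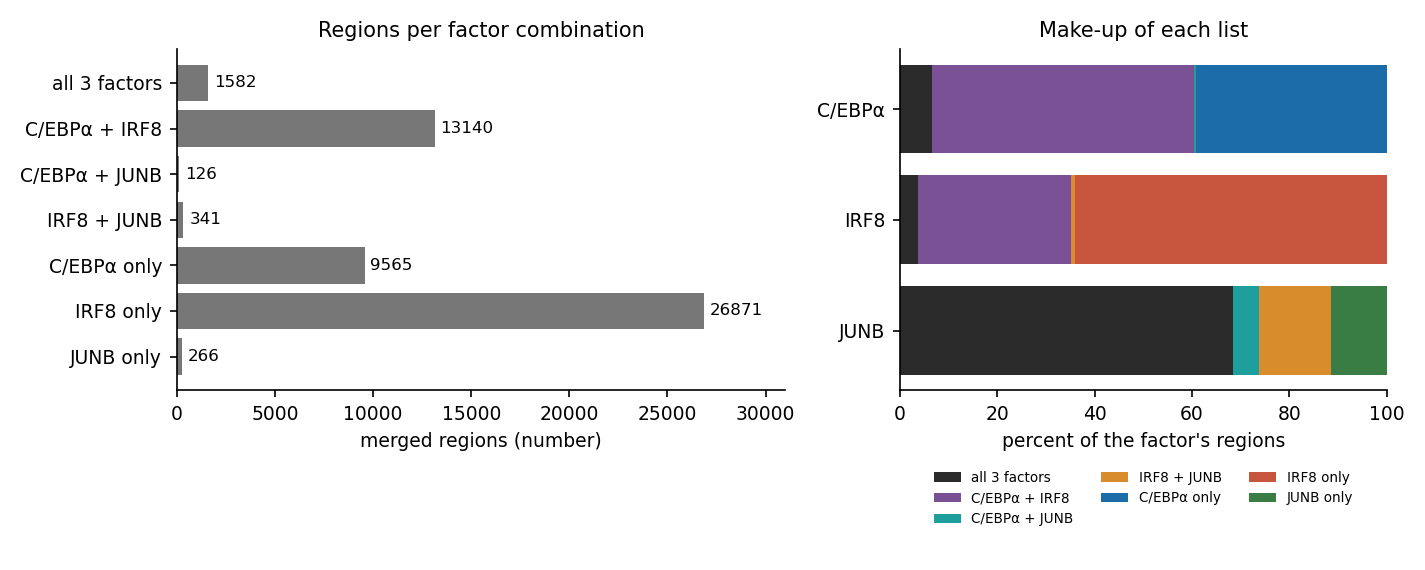
Number of merged regions in each factor combination (left, bars from 0) and the percent of each factor's regions that falls in each combination (right, 1 stacked bar per factor). IRF8-only regions are the most numerous at 26871, and the black segment of the 1582 regions with all 3 factors takes 68.3% of the JUNB bar but 6.48% of the C/EBPα bar and 3.77% of the IRF8 bar.

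Read from the side of each factor in the full lists, JUNB was rarely found alone. Of the JUNB regions, 68.3% held all 3 factors (Wilson 95% interval 66.4% to 70.2%) and 11.5% held no other factor (10.2% to 12.9%). For C/EBPα, 53.8% of regions were shared with IRF8 only (53.2% to 54.4%) and 39.2% were alone (38.6% to 39.8%). For IRF8, 64.1% were alone (63.6% to 64.5%) and 31.3% were shared with C/EBPα only (30.9% to 31.8%). JUNB regions met IRF8 in 83.1% of cases (81.5% to 84.5%) and C/EBPα in 73.8% (71.9% to 75.5%). These and all later intervals are over regions within 1 sample per factor, and they cover counting error only.

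These shares rest on the lengths of the lists. When each list was limited to its 2325 highest scores, 88 regions held all 3 factors and 3.79% of JUNB regions did (3.09% to 4.65%). Most JUNB regions with both other factors therefore rested on C/EBPα or IRF8 peaks outside the 2325 highest scores. With the lists so limited, most JUNB regions (1674) held JUNB alone. JUNB then met C/EBPα only in 313 regions and IRF8 only in 246, the reverse of the order in the full lists. C/EBPα + IRF8 had 210 regions.

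Shared regions were defined by overlapping peaks, so the peaks of different factors in them had to lie close together. Whether the distances below go beyond what that rule sets was not tested. In the regions of all 3 factors, 1551 of 1582 had bases common to a peak of each factor, with a median of 181 bp in common. The centres of the C/EBPα and JUNB peaks were a median of 45.5 bp apart there, and those of the IRF8 and JUNB peaks 47 bp. Merging made the shared regions wider, with medians of 466 bp for all 3 factors, 405 bp for C/EBPα + IRF8, 263 bp for IRF8 only and 170.5 bp for JUNB only.

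The next comparison asked whether the classes differed in score. In both long lists, regions of all 3 factors ranked highest. The median C/EBPα rank was 27.3% in regions of all 3 factors (order-statistic 95% interval 25.6% to 29.5%), 42.8% with IRF8 only (41.9% to 43.6%) and 60.6% alone (59.7% to 61.6%). The median IRF8 rank was 20.7% in regions of all 3 factors (19.4% to 22.3%), 35.6% with C/EBPα only (34.8% to 36.2%) and 59.0% alone (58.3% to 59.5%). JUNB followed the same order over a narrower range, with a median of 46.5% in regions of all 3 factors (42.6% to 48.5%) and 66.6% alone (61.4% to 74.6%). Its classes with 1 partner lay between, at 57.4% with C/EBPα (50.6% to 61.4%) and 50.6% with IRF8 (46.5% to 56.8%), and the IRF8 + JUNB interval overlapped that of all 3 factors.

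**Figure D2:**
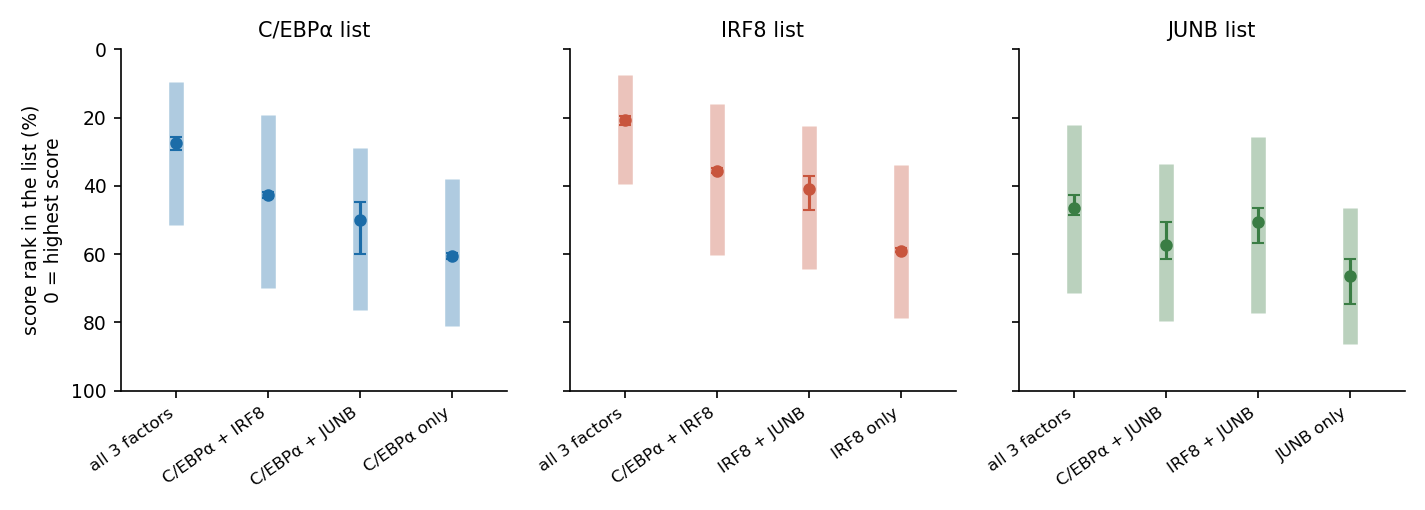
Score rank in the list (%, axis reversed so that high scores are at the top) for each factor and each class that holds it. Points are medians with order-statistic 95% intervals, and shaded bars run from the first to the third quartile. In the C/EBPα and IRF8 lists the class of all 3 factors has the highest-ranking median (27.3% and 20.7%) and the factor alone the lowest-ranking (60.6% and 59.0%).

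The make-up of the lists shifted along the ranks. Among the highest 10% of C/EBPα regions, 16.7% held all 3 factors, 70.6% held C/EBPα + IRF8 and 12.4% held C/EBPα alone. In the lowest quintile (the lowest of 5 equal rank groups), those shares were 2.52%, 44.4% and 52.5%. IRF8 alone made up 36.2% of the highest 10% of IRF8 regions and 81.7% of the lowest quintile. The highest 10% of IRF8 regions thus included 1523 without a partner, while 305 C/EBPα regions were alone in the highest 10% of their list.

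JUNB was found most often where both other factors scored high. Of the regions with C/EBPα and IRF8 in the highest quintile of both lists, 23.6% also had JUNB (n = 1562, 21.6% to 25.8%). With both in the lowest quintile, 2.65% did (n = 264). Within the highest C/EBPα quintile the share went along the IRF8 quintiles from 23.6% to 4.22% in quintile 4, and was 7.17% in quintile 5. Scores of partners in the same region were only weakly related, with a Spearman rho between C/EBPα and IRF8 ranks of 0.21 over the 1582 regions of all 3 factors and 0.10 over the 13140 regions without JUNB. Both ranks of a pair describe the same regions, each from 1 library, and ranks of JUNB with those of the other factors gave 0.11 or less.

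**Figure D3:**
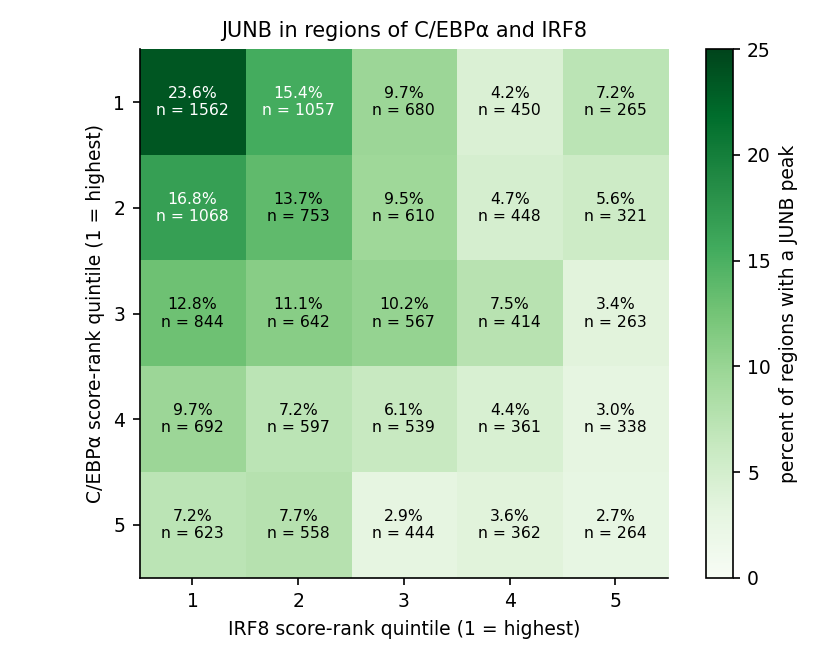
Percent of regions with both C/EBPα and IRF8 that also held a JUNB peak, in a grid of score-rank quintiles of the C/EBPα list (rows) and the IRF8 list (columns), where 1 is the highest quintile and n is the number of regions in a cell. The share is highest where both are in quintile 1, at 23.6%, and 2.65% where both are in quintile 5.

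The highest JUNB scores needed a separate description, because they lay on tandem repeats. Tandem repeat regions were those annotated as simple repeat, satellite, low complexity or rRNA, those with 5 or more copies of TTAGGG or GGAAT in the window, and those on chromosomes M and Y. By this definition, 22 of the 22 JUNB regions in the highest 1% of scores were tandem repeats, of which 11 were TTAGGG tracts and 7 were GGAAT tracts. The share was 39.1% in the highest 10% of JUNB regions (90 of 230) and 5.23% in the rest. In the highest 10% of C/EBPα regions it was 0.894%, and for IRF8 it was 3.12%.

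Most tracts of each kind fell in 1 class. Of the 128 TTAGGG tracts among all regions, 81 were in the class of all 3 factors, where their median scores were 22.65 (C/EBPα), 13.5 (IRF8) and 15.4 (JUNB). Of the 33 GGAAT tracts, 22 were in IRF8 + JUNB regions, with median scores of 19.4 for IRF8 and 23.2 for JUNB. The 3 regions of all 3 factors with the best mean rank were TTAGGG tracts, nearest to Csf2ra, Asmt and Gm14496. At the tract nearest to Csf2ra, which lay 102998 bp from that TSS, the scores were 174.9 (C/EBPα), 112.1 (IRF8) and 74.1 (JUNB). The name of this gene, which encodes a chain of the GM-CSF receptor, thus marks only the nearest annotated start.

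Reads from such arrays have no unique place in the assembly, and whether multiply placed reads were kept is not given in the sources used here. Their part in the scores was not tested. Without the tandem repeat regions, the highest JUNB score in the class of all 3 factors was 40.7 in place of 96.7, and its median JUNB rank was 48.5% (46.5% to 51.3%). The C/EBPα and IRF8 medians of that class were 27.2% and 20.0% without them. The order of the classes by median rank was the same in the C/EBPα and IRF8 lists.

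The best-ranked regions with no named repeat and outside the definition of tandem repeat regions were chosen after their values were seen. Among regions of all 3 factors, the first was in intron 2 of 4 near Ppp1r1c (chr2:79713573-79714091), 6080 bp from the TSS, with scores of 93.3 (C/EBPα), 183.2 (IRF8) and 21.0 (JUNB). A region near Slx4ip, which encodes a partner of the SLX4 nuclease scaffold, had scores of 170.5, 177.9 and 14.6 in the same order. Of these, the C/EBPα and IRF8 scores were in the highest 3% of both lists, while the JUNB rank at Slx4ip was 8.58%. The next region, near Tbc1d14, had a JUNB score of 39.95 (rank 1.31%). Its window was an array of a longer unit that the definition does not cover, so regions outside the definition are not all free of repeats.

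The best C/EBPα + IRF8 regions ranked near the top of both lists. The first was in an intron of Abcg3, which encodes an ATP-binding cassette transporter, with scores of 216.0 for C/EBPα and 238.3 for IRF8 (ranks 0.0264% and 0.213%). The next, also intronic by annotation, lay 54666 bp upstream of the start of Gab2, which encodes an adaptor of growth factor and cytokine receptors, with scores of 190.7 and 235.5. Neither region had a JUNB peak. The best C/EBPα-only region was intergenic, 15869 bp from the start of Umps, a gene of pyrimidine synthesis, with a score of 165.3. Regions near Emilin2 and Musk followed with 154.7 and 150.9.

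The 3 best IRF8-only regions were all at promoters, those of H2-Q5, H2-Q7 and Zfp758, with scores of 272.4, 264.9 and 258.8. H2-Q5 and H2-Q7 belong to the class I histocompatibility genes, whose members are near-identical copies, so reads may be divided or placed wrongly between them and these 2 regions are uncertain. The best JUNB-only regions, near Bbx, Zfy1 and 5031425F14Rik, scored 15.1 to 19.4, and all 3 met the definition of tandem repeat regions, Zfy1 by its place on chromosome Y.

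The classes also differed in where they lay relative to genes. Promoters, as annotated by the authors, held 2.28% of the regions of all 3 factors (1.65% to 3.13%), 6.57% of C/EBPα + IRF8 regions (6.16% to 7.0%), 9.21% of C/EBPα-only regions (8.65% to 9.81%) and 11% of IRF8-only regions (10.6% to 11.4%). The JUNB-only share was 3.01% (1.53% to 5.82%), and IRF8 + JUNB had 2.93% (1.60% to 5.31%). These classes with JUNB thus had lower promoter shares than the classes without it, while in C/EBPα + JUNB the 7 promoters of 126 regions gave 5.56%, whose wide interval spans both (2.72% to 11%). Regions of all 3 factors were intergenic in 52.1% of cases (49.6% to 54.5%), against 44.7% of C/EBPα + IRF8 regions (43.8% to 45.5%).

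Regions of all 3 factors also lay farther from genes than the classes without JUNB. The median absolute distance to the TSS was 28164 bp in regions of all 3 factors (25877 to 31285), 20765 bp in C/EBPα + IRF8 regions (20128 to 21473), 15966 bp in C/EBPα-only regions (15297 to 16705) and 18928 bp in IRF8-only regions (18467 to 19447). The other classes with JUNB did not share 1 distance. JUNB-only regions had a median of 30583 bp (23105 to 39951), IRF8 + JUNB regions 24042 bp (18466 to 30067) and C/EBPα + JUNB regions 18938.5 bp (13438 to 23687). Within 1000 bp of a TSS lay 3.29% of the regions of all 3 factors and 15.7% of the IRF8-only regions.

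Because the classes differed in rank, promoter shares were read again within rank quintiles. Among IRF8 regions, IRF8-only regions were at promoters in 6.56% of the highest quintile and 14.3% of the lowest. C/EBPα + IRF8 regions went from 4.48% to 11.5% over the same quintiles, and regions of all 3 factors went from 2.73% (n = 768) to 1.59% (n = 63). In the C/EBPα list, the highest quintile had 9.65% at promoters alone, 5.92% with IRF8 and 3.14% with all 3 factors, so the order held at matched rank. When the lists were instead limited to their 2325 highest scores, the 88 regions of all 3 factors had 5.68% at promoters (2.45% to 12.6%). IRF8-only regions then had 5.73% (4.74% to 6.90%), and the difference was not detectable. The 210 C/EBPα + IRF8 regions had 2.86%, below the share with all 3 factors, which reverses the order above. That value also lies within the interval for all 3 factors.

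**Figure D4:**
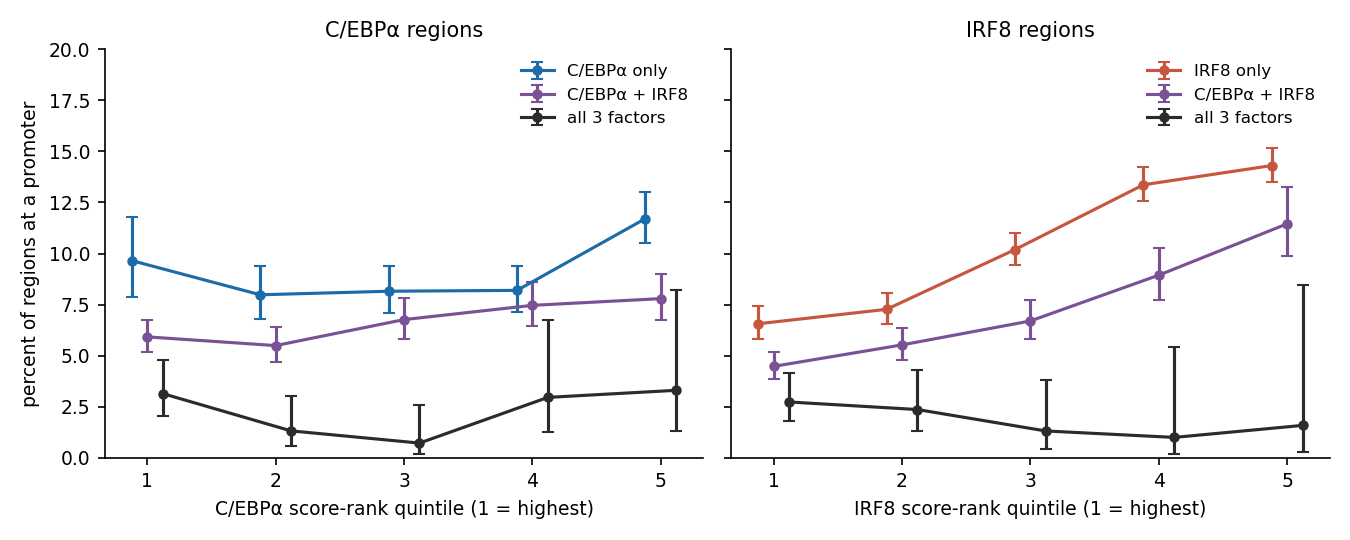
Percent of regions at a promoter by score-rank quintile (1 is the highest) in the C/EBPα list (left) and the IRF8 list (right), with Wilson 95% intervals, for the factor alone, for C/EBPα + IRF8 and for all 3 factors. In quintile 1 of the IRF8 list the shares are 6.56%, 4.48% and 2.73%, and in quintile 5 they are 14.3%, 11.5% and 1.59%.

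The sequence words followed the factors. TGACTCA was found in 35.6% of regions of all 3 factors (33.3% to 38.0%), 48.4% of C/EBPα + JUNB (39.9% to 57.1%), 43.4% of IRF8 + JUNB (38.2% to 48.7%) and 41.0% of JUNB-only regions (35.2% to 47.0%). The classes without JUNB had 11.4% (C/EBPα + IRF8), 10.5% (C/EBPα only) and 8.00% (IRF8 only). Windows of the same length 2000 bp away held it in 3.45% of cases over all regions. At matched rank in the IRF8 list the word was also more frequent with JUNB, at 30.1% against 8.16% for all 3 factors and C/EBPα + IRF8 in the highest quintile, and 57.1% against 14.0% in the lowest.

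**Figure D5:**
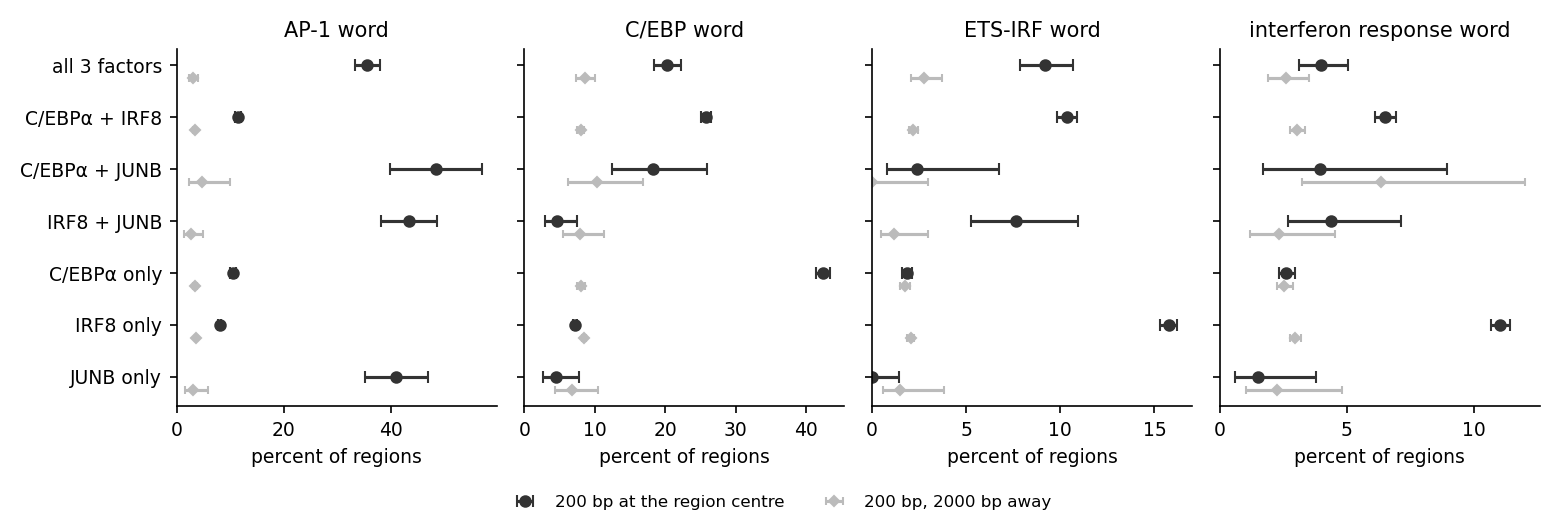
Percent of regions in each class with the AP-1, C/EBP, ETS-IRF or interferon response word in the 200 bp at the region centre (dark points) and in a 200 bp window 2000 bp away (grey diamonds), with Wilson 95% intervals and a separate percent axis from 0 per word. The AP-1 word is at 35.6% to 48.4% in the 4 classes with JUNB and at 8.00% to 11.4% in the others, and the C/EBP word is highest in C/EBPα-only regions at 42.4%.

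Along the JUNB ranks, the course of this word differed with and without tandem repeats. With all JUNB regions, TGACTCA was in 38.2% of the highest quintile, 44.3% of the second and 31.6% of the lowest. The highest quintile held 116 tandem repeat regions of 461. Without them the shares went in order from 49.9% (44.6% to 55.1%) in the highest quintile to 32.4% (28.2% to 36.8%) in the lowest.

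The C/EBP word was most frequent where C/EBPα was alone. To allow for the shift of centre that merging brings, it was also counted in the 200 bp at the centre of each C/EBPα peak. There, TTGCNNAA was in 42.4% of C/EBPα-only regions (41.4% to 43.4%), 28.5% of C/EBPα + IRF8 regions and 22.2% of regions of all 3 factors, against 8.23% in windows 2000 bp from all regions. The order also held within the highest quintile of C/EBPα ranks, with 64.8%, 47.9% and 36.9%. C/EBPα peaks of the highest quintile thus carried this word less often in regions shared with the other factors.

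IRF8 showed a similar order for its composite words. At the centre of IRF8 peaks in the highest quintile of the list, the ETS-IRF word was in 35.8% of IRF8-only regions, 24.0% of C/EBPα + IRF8 regions and 17.45% of regions of all 3 factors. The interferon response word was in 18.4%, 10.9% and 7.55% in the same order. The PU.1 word did not follow this order, at 12.9%, 16.5% and 14.3%. The ETS-IRF and PU.1 words overlapped in 299 of the 602 windows with both, and the ETS-IRF and interferon response words in 315 of 585, so they are not separate counts.

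Words for different factors were also counted together. AP-1 and C/EBP words were both present in 7.21% of regions of all 3 factors (114 of 1582, 6.03% to 8.59%), as at Cd36, Abca1 and Clec4d above, and in 2.64% of C/EBPα + IRF8 regions. The single-word shares in the same windows were 35.6% (AP-1) and 20.2% (C/EBP) with all 3 factors, and 11.4% and 25.8% in C/EBPα + IRF8. Whether the words met more or less often than these shares give was not tested. Words of all 3 kinds were present in 4 of the 1582. None of the AP-1, C/EBP, ETS-IRF and interferon response words was found in 43.9% of regions of all 3 factors (41.5% to 46.4%) and in 63.3% of IRF8-only regions. A missing word says only that these letters are not in the window.

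AP-1 and IRF proteins can also bind side by side. The adjacent form, GAAA directly followed by TGANTCA, was in 2.09% of regions of all 3 factors (33 regions, 1.49% to 2.91%) and 2.93% of IRF8 + JUNB regions (10 regions), against 0.426% of C/EBPα + IRF8 and 0.231% of IRF8-only regions. The spaced form, TGACTCA and GAAA with any 4 bases between, was in 0.316% of regions of all 3 factors. Any match of the adjacent form that ends in TGACTCA is also counted as an AP-1 word.

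Genes were then assigned by the nearest TSS, which does not show that a region acts on that gene. The regions had 14177 nearest genes. Of these, 1314 (9.27%) had at least 1 region of all 3 factors, 1850 (13.0%) had at least 1 region with JUNB, and 6546 (46.2%) had at least 1 C/EBPα + IRF8 region. Genes with many regions more often had one of all 3 factors. The share was 1.49% for genes with 1 region (n = 4913) and 74.7% for genes with over 20 regions (n = 158).

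H2afy3 was the nearest gene of the most regions of all 3 factors, with 6 of its 38 regions. All 6 were intergenic on chromosome 15, between 32771 and 589953 bp from the TSS. Pde4d, which encodes a cyclic AMP phosphodiesterase, had 5, with C/EBPα scores from 11.6 to 92.2 and JUNB scores from 3.83 to 7.51. Gm20125 and Prdm1, which encodes the repressor BLIMP-1, had 4 each. Cd36, which encodes a scavenger receptor for oxidised lipoproteins, had 5 out of 15 regions in all.

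The 5 Cd36 regions were in intron 1 by annotation and lay on chromosome 5 between 17839505 and 17880340. Their C/EBPα scores were high throughout, at 68.5, 58.1, 55.6, 58.8 and 103.8 in the order of position. IRF8 scores there spread more widely, at 35.2, 86.0, 6.58, 27.0 and 24.9. JUNB scores were 9.52, 5.73, 9.31, 3.38 and 11.6. The last of these regions, with the highest C/EBPα and JUNB scores of the 5, is the one whose sequence is shown above.

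Lists of genes were counted next, to see which programmes had regions of all 3 factors nearby. The macrophage identity list, used to check the labelled cell type, had at least 1 region at 28 of 28 genes, with Csf1r at 13 regions and Adgre1 at 11. Housekeeping genes had a region at 15 of 16 genes, neutrophil markers at 7 of 10, B cell markers at 5 of 8, T cell markers at 5 of 10, fibroblast markers at 4 of 8, and neuron and liver markers at 4 of 10. The share of all annotated genes with a region was not counted. Housekeeping genes came close to the macrophage list, so having a region does not by itself identify the cell type. Regions of all 3 factors were nearest to 8 of the 28 macrophage genes, beside 9.27% of all nearest genes, and made up 12 of the list's 175 regions (6.86%, 3.97% to 11.6%), beside 3.05% of all regions. The median number of regions per gene in this list was 5.5, against 2 over all nearest genes, which have at least 1 region by definition. Of the 12 regions, 5 were nearest to Cd36, all in its intron 1, and the interval counts them as if they were independent. The share without Cd36 was not counted. Cd36 was followed by Abca1, a cholesterol exporter, and Csf2ra, by the repeat tract described above, with 1 each. Ctss, which encodes the lysosomal protease cathepsin S, also had 1. Of the 14 genes of this list with a promoter region, 2 had JUNB there, Cd68 with all 3 factors and Trem2 with C/EBPα. Over all nearest genes with a promoter region, 61 of 4398 did (1.39%). Cd68 and Trem2 were named after their values were seen, and the difference was not tested.

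AP-1 and bZIP genes had regions of all 3 factors at 7 of 16 genes, beside 9.27% of all nearest genes, with a median of 9.5 regions per gene. By region the share was 10 of 197 (5.08%, 2.78% to 9.09%), an interval that holds the 3.05% of all regions. Maf, which encodes c-MAF, had 3 such regions of 49. The best of them (chr8:115423004-115423966) was 283587 bp from the TSS, with scores of 89.8 (C/EBPα), 36.9 (IRF8) and 9.59 (JUNB). Atf3 had 2 of 10, and its region at chr1:191230374-191231002 held a TGACTCA word. Jun and Fos had 1 each, 53969 bp and 36181 bp upstream. The C/EBP family had none at its 7 genes, with 0 of 28 regions, which allows a share of up to 10.7% and so does not differ detectably from all regions.

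Other transcription factors of macrophages had 11 of 25 genes with a region of all 3 factors (44%, beside 9.27% of all nearest genes). Their median was 11 regions per gene, beside 2 over all nearest genes. Regions of all 3 factors were 18 of the list's 384 (4.69%, 2.99% to 7.29%), and 3.05% of all regions lies within that interval. Klf4, which was nearest to 54 regions, had 3 with all 3 factors, 203266 to 494308 bp upstream. Mef2c, a MADS-box factor, also had 3 of 27. One of them (chr13:83074143-83074842) had a C/EBPα score of 189.4, an IRF8 score of 76.0 and a JUNB score of 11.7. Runx1, a factor of haematopoietic development, had 2 of 45, and the one in an intron (chr16:92675617-92676123) had scores of 19.1, 199.3 and 11.5 in the same order, with a TGACTCA word.

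Genes of alternative activation had a region of all 3 factors at 3 of 20 genes (15%, beside 9.27% of all nearest genes), namely Arg1, Tgm2 and Mgl2. This was 3 of 98 regions (3.06%, 1.05% to 8.62%), beside 3.05% of all regions. Arg1 encodes arginase, a defining enzyme of IL-4-treated mouse macrophages. Its region (chr10:24930130-24930617) was 2903 bp upstream of the TSS and ranked high in every list, with scores of 97.7 for C/EBPα (rank 2.45%), 41.9 for IRF8 (13.1%) and 20.4 for JUNB (3.70%). The Tgm2 region, in an intron of this transglutaminase gene, scored 16.6, 23.1 and 5.26, and that of Mgl2, a C-type lectin gene, 22.7, 37.4 and 3.22. Pdcd1lg2, which encodes PD-L2, had none among its 13 regions.

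In the IL-4 receptor and STAT6 pathway, 1 of 14 genes had a region of all 3 factors (7.14%, beside 9.27% of all nearest genes), and 1 of 96 regions (1.04%, 0.184% to 5.67%). This was Socs3, a feedback inhibitor of cytokine signalling, with scores of 76.2 (C/EBPα), 110.9 (IRF8) and 11.5 (JUNB) at a region 22543 bp from the TSS. Socs1, the related inhibitor, had 16 regions and none of all 3 factors. JUNB was found at 2 of its regions, 1 with C/EBPα and 1 with IRF8, and its promoter held IRF8 alone at a rank of 4.46%.

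Inflammatory genes had regions of all 3 factors at 10 of 28 genes (35.7%, beside 9.27% of all nearest genes), with a median of 5 regions per gene. By region the share was 13 of 180 (7.22%, 4.27% to 12.0%), beside 3.05% of all regions. Tlr4, the receptor for lipopolysaccharide, had 3 of 20. Clec4d, a C-type lectin gene, had 2 of 5, and the one 9162 bp upstream carried an AP-1 and a C/EBP word. At the Ccl2 region (chr11:82022435-82023113), 12709 bp upstream of this monocyte chemokine gene, scores were 67.0 (C/EBPα), 243.2 (IRF8) and 10.2 (JUNB). The Il6 region, 64857 bp upstream, scored 128.0, 175.0 and 6.37. Both were in the highest 2% of the IRF8 list.

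None of the 28 interferon-stimulated genes had a region of all 3 factors. Their 0 of 84 regions allows a share of up to 3.57%, so a difference from the 3.05% of all regions was not detectable. JUNB had no peak in any of the 84 regions, beside 2315 of all 51891 regions. None of these genes had a region with JUNB, beside 13.0% of all nearest genes, and this lack of JUNB was not tested. Regions at promoters were found for 22 of the 28 genes, and 21 of those had IRF8 there (95.5%, 78.2% to 99.2%), while 10 had C/EBPα (45.5%, 26.9% to 65.3%). Over all nearest genes, 4398 of 14177 had a promoter region (31.0%), of which 83.2% had IRF8 and 39.2% had C/EBPα, both within the list's intervals. Usp18, which encodes a deconjugating enzyme for ISG15, had IRF8 alone at its promoter (chr6:121245508-121245998) at a rank of 4.99%, with the interferon response word shown above. The median number of regions per gene was 2 in this list, as over all nearest genes.

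Among the IRF genes, Irf2 and Irf4 had 1 region of all 3 factors each (2 of 9 genes, 22.2%, beside 9.27% of all nearest genes). By region the share was 2 of 59 (3.39%, 0.935% to 11.5%), an interval that holds the 3.05% of all regions. Housekeeping genes had 3 of 16, Eef1a1, Ywhaz and Actb, with a median of 2.5 regions per gene. By region the housekeeping share was 3 of 54 (5.56%, 1.91% to 15.1%). That interval holds the shares of the macrophage identity list (6.86%) and the inflammatory list (7.22%). Among markers of other cells, regions of all 3 factors were nearest to 2 of 8 B cell genes (25%), 1 of 10 neutrophil genes, 1 of 8 fibroblast genes (12.5%), 0 of 10 T cell genes, and 0 of 10 neuron and liver genes, lists too short to set against 9.27%. By region, the shares were 2 of 12 for B cell genes (16.7%, 4.70% to 44.8%) and 1 of 16 for neutrophil genes (6.25%, 1.11% to 28.3%). Fibroblast genes had 1 of 10 (10%, 1.79% to 40.4%), T cell genes 0 of 14, and neuron and liver genes 0 of 19. The Cr2 region counted for B cells was a tandem repeat tract, 195111 bp from the TSS. No list count was tested, and a nearest gene is one annotation among several possible ones.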

How the data were processed

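Wild-type BMDMs given IL-4 were processed for ChIP with antibodies against C/EBPα, IRF8 or JUNB, 1 sample each. Reads were aligned to mm10 with BWA by the authors, who per their methods called peaks per sample with MACS2 at a q-value limit of 0.01 and removed peaks on artifact regions of the ENCODE blacklist. The submitters' processing notes name BWA 0.7.10, SAMtools 0.1.19, HOMER 4.2 and MACS2 2.0.10. The control library and read numbers are not given in the sources used here, so depth is unknown. The deposited peak score, with no unit given by the authors, was used as a rank within its list, and the deposited distance to the TSS, annotation and nearest gene were used as given. Starts are as written in the files, which may leave 1 bp of doubt.

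Peaks sharing at least 1 bp were merged, also when linked only through another peak. A region took the best rank of each factor and the annotation of its best-ranked peak. Words were counted in 200 bp windows read from GRCm38, and the same length 2000 bp away served as comparison. Shares carry Wilson 95% intervals and medians order-statistic intervals. No test was possible with 1 sample per factor. The scripts used Python 3.11.15, pandas 2.3.3, numpy 2.4.6, scipy 1.17.1 and matplotlib 3.10.9. Checks were run on simulated data, on fixed examples and on the merging of the real lists, and 13 of 13 were within limits. Among them, bedtools 2.31.1 gave the same 51891 regions.

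Regions and lists were chosen with earlier results of these data known. Named were the 3 best regions by mean rank of each class outside chromosome 18, the 5 genes with most regions of all 3 factors, and up to 4 genes per list with most such regions, apart from those said to be chosen later. Alternatives changed the overlap, the peak width, the score limit, the list length, the chromosomes, the rank and annotation of a region, the promoter width, the word window and the tandem repeats.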

Additional observations from a re-analysis of the deposited data

How the results depend on the processing

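The alternatives gave 70 values, of which 40 moved by less than the counting interval, or by less than 1.5 times for a count. With scores of at least 10, 261 regions held all 3 factors, 60.1% of JUNB regions did, and 68.4% of IRF8 regions were alone. Promoter shares were then 1.53% for all 3 factors, 6.86% for IRF8 only and 8.37% for C/EBPα only, the median distance for all 3 factors was 37802 bp, their median IRF8 rank 30.6% and their nearest genes 258. With each list limited to its 2325 highest scores, the same results in the same order were 88, 3.79%, 76.6%, 5.68%, 5.73%, 7.18%, 24112 bp, 33.0% and 85, and the TGACTCA share in regions of all 3 factors was 15.9%. Peaks of 200 bp gave 65.4% of JUNB regions with all 3 factors, 65.5% of IRF8 regions alone and a TGACTCA share of 40.2%. An overlap of at least 50% of the shorter peak gave 65.6% of IRF8 regions alone. Promoters taken as 2000 bp around the TSS were 5.44% for all 3 factors, 19.3% for IRF8 only and 19% for C/EBPα only. The TGACTCA share was 23.8% in 100 bp at the best peak. Without tandem repeat regions, an alternative chosen after seeing the data, 63.4% of IRF8 regions were alone, the IRF8-only promoter share was 11.5% and the TGACTCA share was 38.0%. Chromosomes 1 to 19 alone, another peak of the region for the annotation and another rank moved none of the values they were applied to. The cause of these moves was not tested. The IRF8 ranks of 30.6% and 33.0%, however, are ranks within the shortened lists, so they are not on the scale of the full list. No paired analysis was possible because each factor had 1 sample after IL-4. Depth is unknown, so a region without a peak of a factor is one where none was called.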

Other observations

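Further words were counted that stand for factors not precipitated here. A STAT6-type word, TTC and GAA with any 4 bases between, was in 12.1% of regions of all 3 factors (10.6% to 13.8%), 10.9% of C/EBPα + IRF8 regions, 8.72% of C/EBPα-only regions, 6.95% of IRF8-only regions and 6.02% of JUNB-only regions. Windows 2000 bp away held it in 5.34% of cases over all regions. A RUNX word, TGTGGT, was in 25.7% of regions of all 3 factors (23.6% to 27.9%), 23.4% of C/EBPα + IRF8 regions and 17.0% of IRF8-only regions, against 15.3% at that distance. JUNB-only regions had 14.3% (10.6% to 19%), with 16.5% in their own windows 2000 bp away.

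Promoters of the classes differed in base composition. IRF8-only promoters (n = 2952) had a median GC content of 56.5% and 11 CpG dinucleotides in 200 bp, C/EBPα-only promoters (n = 881) had 51.5% and 6, and the 36 promoters of all 3 factors had 47.0% and 3. Away from promoters, the median GC content was 45.5% in each of those classes. Chromosome X held 2.78% of IRF8-only regions (2.59% to 2.98%), 1.81% of C/EBPα + IRF8 regions, 0.506% of regions of all 3 factors (8 regions, 0.256% to 0.995%) and 0 of the 266 JUNB-only regions, which allows a share of up to 1.13%.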
